A study of Mus musculus with 24 samples.

Results

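Dorsal root ganglia hold the cell bodies of the sensory neurons that carry touch, temperature, pain and body position to the spinal cord. Mouse dorsal root ganglion RNA taken at E17.5 was compared with RNA taken at E12.5, and the comparison covered all genes of the deposited table. It used 6 of the 24 sequencing libraries of the study, 3 per age, chosen by their labelled developmental stage. The other 18 libraries, from adult ganglia after surgery or in culture, entered only where stated. The labels give the embryonic source as dorsal root ganglion neurons. The design text calls the ganglia of both embryonic ages lumbar, without naming segments. No strain, genotype or number of embryos is given. Cell sorting stands in the protocol text of all libraries, and whether the embryonic ganglia were sorted is not stated. The libraries of an age are not tied to separate animals, so p-values measure the spread between these libraries, which may be technical.

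As background, sensory neurons of the mouse are born from neural crest precursors that leave the cell cycle around the earlier of these ages. By late gestation the neurons have sent axons to skin, muscle and spinal cord and have begun to split into functional classes, while satellite cells and Schwann cells multiply around them. Cells that stop dividing usually make less of the machinery for copying DNA and building ribosomes. Maturing neurons usually turn from patterning signals to signalling through receptors, calcium and lipids.

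Values are normalized read counts, that is read counts that the authors divided by 1 factor per library. Differences are E17.5 minus E12.5 on the scale of log2(value + 1), given with their standard error, and a gene is said to rise or fall where limma's Benjamini-Hochberg adjusted p was below 0.05. Of 14469 genes tested, 4511 rose (31.2% of the genes tested) and 4644 fell (32.1%). In either direction 63.3% were called. With a difference of at least 2-fold in addition, 2991 rose (20.7%) and 2446 fell (16.9%). The median difference over all genes tested was -0.05. Changes were thus common, and each group of genes below is read against these shares and this median. The 2 ages did not overlap in 70.0% of the genes tested, 34.3% with E17.5 higher and 35.6% with E17.5 lower. Genes named below as the largest rises and falls of a list were picked from called genes without overlap. For those genes, the lack of overlap was a condition of being named and adds no support of its own.

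Depth was 13645512 to 18285309 reads in genes at E12.5 and 24307869, 3103838 and 4610428 in E17.5 replicates 1, 2 and 3, so low E17.5 values of replicates 2 and 3 rest on few reads. The library numbers in the labels run from 84 to 87 at E12.5 and from 336 to 338 at E17.5, so that age and run of library numbers are one and the same split of the libraries and cannot be told apart. In 156 genes at least 1 of the 6 values matched a trimmed mean over all 24 libraries to the read, and these genes were left out of the fit because such a value need not be a measurement of its own library. The search asked for a value of at least 3 reads and, where only some libraries of an age matched, for another library of that age at least 3-fold above the mean, so matches at few reads may be chance. It did not cover genes in which all 6 values share 1 level. Actc1 and Myh3, singled out after their values were seen, are of that kind, and both stayed in the fit and were not called. The genes left out include regulators such as Hoxb9 (16889, 14359 and 418 at E12.5), Mycl (3517, 3337 and 39.6) and Neurod1 (23.6, 23.8 and 851). Markers of other tissues also moved with age. Of 30 tested markers of spinal cord neurons and their precursors, 27 fell and 0 rose. The summed level of the 43 of 51 listed spinal cord markers without a trimmed-mean value was 9176 to 12031 at E12.5 and 829 to 1108 at E17.5. Of these 43, 12 were at 0 in all 3 E17.5 libraries. Lbx1, Evx1, Mnx1 and Barhl2 among them had reads in every E12.5 library, while Otp was at 0 there too and Atoh1, Ptf1a and Gsx1 were at 0 in at least 1. The filter asked for a value of at least 10 in 3 of the 6 libraries. Markers below 10 in every E17.5 library, such as Lbx1 and Mnx1, could thus only come out lower or not called. Of 10 sensory neuron markers 8 rose (sum 19320 to 31740 at E12.5, 48067 to 68845 at E17.5), and of 10 Schwann and satellite cell markers 6 rose and 1 fell (sum 5101 to 5905, then 15075 to 16752). The 7 of 9 cartilage and bone markers without a trimmed-mean value summed to 47.2 to 93.7 at E12.5 and 1589 to 2725 at E17.5. Ibsp alone gave most of the late sum (2075, 1894 and 1078). The 2 left out were Col2a1, with a trimmed-mean value in all 3 E12.5 libraries, and Col9a1. Col9a1 read 643, 549 and 5.05 at E12.5, the last a trimmed-mean value, and 43.3, 95.2 and 27.7 at E17.5. Of 9 tested markers of meninges and fibroblasts 4 rose and 3 fell, and their sum was 9867, 11133 and 22061 at E12.5 and 41174, 40368 and 32584 at E17.5. E12.5 replicate 3 thus stood apart, with the highest fibroblast sum of its age and the lowest sums of spinal cord (9176, against 12031 and 11745 in replicates 1 and 2) and sensory neuron markers (19320, against 27751 and 31740). Without it 4426 genes rose and 4138 fell of 14207 tested. In bulk RNA fewer cells of a type and less RNA per cell cannot be told apart, and the part of these cell types in the results below was not tested.

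**Figure D1:**
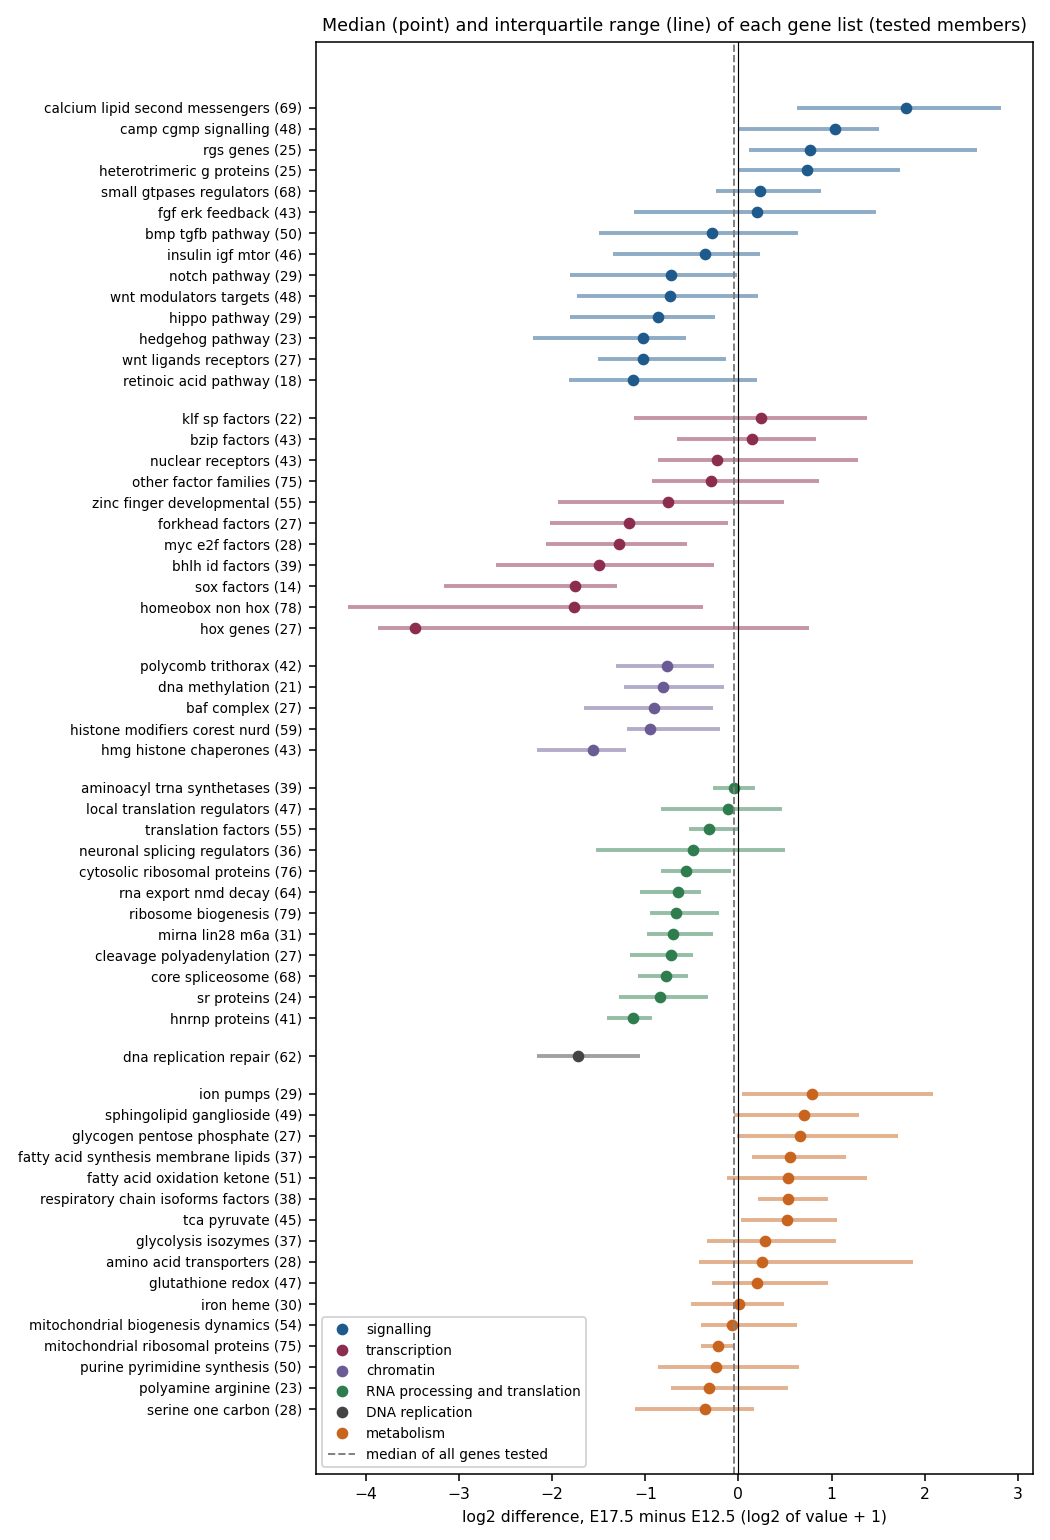
Median log2 difference (point) and interquartile range (line) of 59 gene lists, E17.5 minus E12.5, with the number of tested members in parentheses; the dashed line is the median of all 14469 genes tested. Second messenger lists lie to the right, at up to 1.80, while transcription factor, chromatin, RNA processing and replication lists lie mostly to the left, down to -3.47 for the Hox genes.

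Among the pathways that pattern early embryonic tissue, most tested Wnt, Notch, Hedgehog, retinoic acid and Hippo genes were lower at E17.5. Many of these genes are also used in the early spinal cord, whose markers fell as given above, and the part of that tissue was not tested. In the Wnt pathway, secreted Wnt proteins bind Frizzled receptors and stabilise beta-catenin, which switches on targets such as Axin2. Of 27 tested Wnt ligands and receptors 17 fell and 2 rose (1 without E12.5 replicate 2), with a median of -1.02. Wnt4 stood at 1127, 1036 and 323 at E12.5 and 99.7, 95.2 and 106 at E17.5. Its E12.5 replicate 3 lay well below replicates 1 and 2 but still above every E17.5 library, and the difference was -2.84 ± 0.42 (adjusted p = 3.6e-04), or -3.42 without that library. The receptor Fzd2 fell (difference -2.11 ± 0.20, adjusted p = 3.1e-05), and Fzd5 rose by 0.87 ± 0.18 (adjusted p = 0.00245). Of 48 tested modulators and targets 25 fell and 10 rose (median -0.74). Axin2, both a target and a brake of the pathway, read 1514, 1450.0 and 745 at E12.5 and 148, 119.9 and 162 at E17.5. All 3 late libraries were below all 3 early ones (difference -3.04 ± 0.27, adjusted p = 1.7e-05). The secreted Wnt antagonists did not move as a block. Sfrp2 fell (989.5 ± 113 to 77.8 ± 9.06, mean ± SD of 3 libraries), whereas Sfrp5 (59.5 ± 11.7 to 976 ± 311) and Sostdc1 (63.0 ± 36.6 to 2423 ± 192) rose, with adjusted p-values of 5.1e-07, 2.7e-06 and 1.0e-05.

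Notch receptors are cut after binding a ligand on the neighbouring cell, and their signal holds precursors back from becoming neurons. Of 29 tested genes of the pathway 18 fell and 3 rose (median -0.73), with 5 rises without E17.5 replicate 1. The receptor Notch1 fell from 3405 ± 1068 to 813 ± 123 (difference -2.02 ± 0.24, adjusted p = 1.1e-04). Mfng, a sugar transferase that tunes the receptor, and Hes6, a factor of differentiating precursors, also fell, with differences of -3.06 ± 0.28 and -2.64 ± 0.20. Hey2, a repressor induced by Notch in several tissues, went the other way, at 207, 267 and 281 at E12.5 and 997, 1167 and 1019.7 at E17.5. Its groups did not overlap (difference 2.08 ± 0.15, adjusted p = 6.6e-06).

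Hedgehog proteins act through Patched and Smoothened on the Gli factors. Of 23 tested genes of this pathway 16 fell and 3 rose (median -1.02). Gli3, which mostly represses targets in the absence of the ligand, read 2098, 1872 and 1846 at E12.5 and 199.8, 222 and 185 at E17.5. The ages did not overlap, and the difference was -3.26 ± 0.13 (adjusted p = 3.9e-07). The transducer Smo (-1.99 ± 0.14), the receptor Ptch1 (-0.78 ± 0.18) and the co-receptor Gas1 (-3.06 ± 0.17) fell too, while the target Gli1 was not called (-0.57 ± 0.43, adjusted p = 0.28). The ligand made by Schwann cells, Dhh, rose from 17.6, 27.6 and 42.5 to 539, 568 and 939. Its lowest E17.5 library was far above its highest E12.5 library (adjusted p = 6.2e-06). Dhh moved with the Schwann and satellite cell markers, and their part in its rise was not tested.

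BMP and TGF-beta ligands signal through Smad proteins. In this list the directions were split, with 22 of 50 tested genes lower and 14 higher (median -0.29). Smad3, which carries TGF-beta and activin signals, read 1840.1, 1803 and 2065 at E12.5 and 254, 219 and 185 at E17.5. All late libraries were far below all early ones (difference -3.12 ± 0.15, adjusted p = 7.9e-07). The activin receptor Acvr2b fell to 17.5, 7.05 and 4.62 from 169, 139 and 90.1. Smad9, a transducer of BMP signals, rose from 104 ± 77.0 to 462 ± 70.1, and the co-receptor Tgfbr3 rose from 288 ± 154 to 1331 ± 44.4, with adjusted p-values of 0.001 and 1.8e-04. For both genes E12.5 replicate 3, the library with the most fibroblast marker RNA of its age, was the highest early library. Without it the differences were 2.92 for Smad9 and 2.74 for Tgfbr3.

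Retinoic acid, made from vitamin A, acts through nuclear receptors on neural patterning. Of 18 tested genes of its synthesis, binding and reception 12 fell and 3 rose (median -1.13). There was 1 rise without E17.5 replicate 1, 2 or 3, where 16 in place of 18 genes passed the filter. The binding protein Crabp1 read 1481, 1290.1 and 998 at E12.5 and 48.5, 59.96 and 37.0 at E17.5. The ages did not overlap (difference -4.67 ± 0.22, adjusted p = 7.4e-07). The receptors Rara and Rarb and the synthetic enzyme Aldh1a2 fell, with differences of -2.71 ± 0.20, -2.14 ± 0.23 and -1.45 ± 0.18. The receptor Rarg was not called (-0.31 ± 0.29, adjusted p = 0.365).

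The Hippo pathway restrains the growth co-activators Yap1 and Wwtr1, which work with TEAD factors. Of 29 tested members 19 fell and 2 rose (median -0.86). Yap1 fell (-1.96 ± 0.17, adjusted p = 1.8e-05), and so did Tead2 (-3.27 ± 0.13, adjusted p = 4.0e-07). Wwtr1, the close relative of Yap1, stood at 1243, 1220.0 and 1437 at E12.5 and 1839, 2296 and 1843 at E17.5. It rose slightly (difference 0.61 ± 0.14, adjusted p = 0.00376), and its groups did not overlap. In the insulin, IGF and mTOR list 22 of 46 fell and 10 rose. Igf1r fell (-0.90 ± 0.10, adjusted p = 8.6e-05), Deptor, an inhibitor of mTOR, rose from 138 ± 85.2 to 1230.1 ± 181, and Igf2 and Mtor were not called (adjusted p = 0.993 and 0.219).

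Fibroblast growth factor signalling was mixed, with 17 of 43 tested genes higher and 15 lower (median 0.20). Without E17.5 replicate 3 there were 15 rises and 15 falls. Fgf1, a growth factor of many sensory neurons, read 42.3, 38.5 and 69.2 at E12.5 and 2848, 2920.4 and 2814 at E17.5. The late libraries lay within a narrow band far above the early ones (difference 5.86 ± 0.21, adjusted p = 3.0e-07). Etv1, a factor of proprioceptive neurons downstream of peripheral signals, read 267, 272 and 234 at E12.5 and 3175, 3541 and 3156 at E17.5, a difference of 3.67 ± 0.12 (adjusted p = 1.9e-07). The feedback inhibitor Spry4 and the factor Etv5 rose by 2.22 ± 0.20 and 1.56 ± 0.20, and the receptor Fgfr3 and the phosphatase Dusp9 fell (differences -3.52 ± 0.37 and -4.19 ± 0.40). Fgfr1 and Dusp6 were not called (adjusted p = 0.267 and 0.293).

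**Figure D2:**
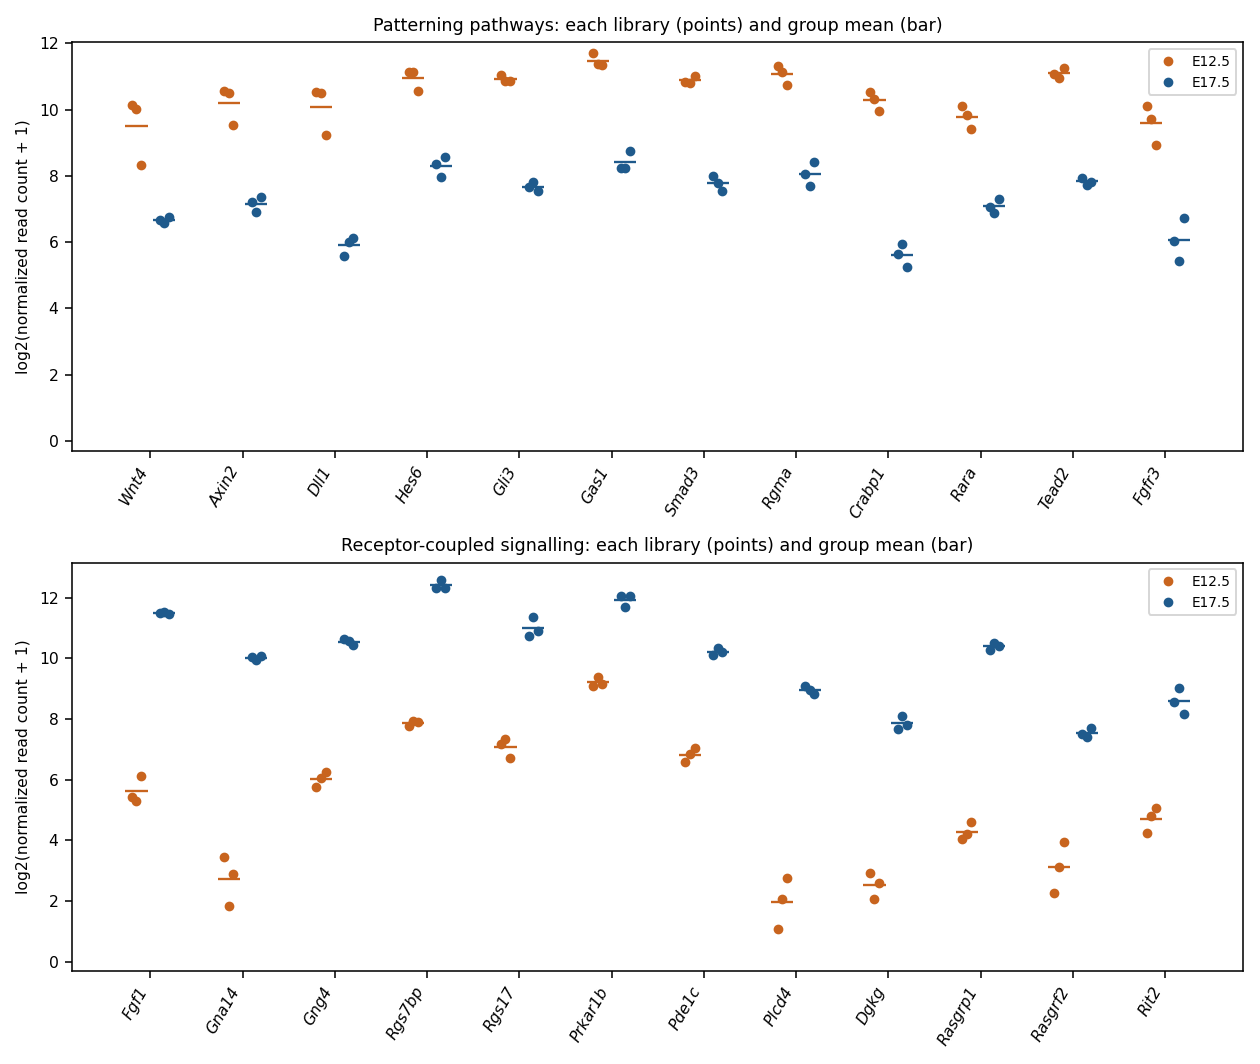
Normalized read counts as log2(value + 1) in each library (points, with the group mean as a bar) for genes of patterning pathways (top) and of signalling downstream of receptors (bottom), orange for E12.5 and blue for E17.5. The 24 genes drawn were picked from called genes whose ages do not overlap, lower at E17.5 for the top panel and higher for the bottom. Genes of these lists that moved the other way, such as Hey2 and Plch1, are not drawn. Gna14, Plcd4 and Dgkg passed the filter only through their E17.5 values, so they could not have come out lower.

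Signalling downstream of receptors went up in most tested genes. Heterotrimeric G proteins pass the signal of G protein-coupled receptors to enzymes and channels. Of 25 tested subunit genes 17 rose and 3 fell (median 0.74). Gna14, a Gq-type alpha subunit on chromosome 19 from 16435667 to 16610818 (GRCm38), read 9.88, 2.57 and 6.49 at E12.5 and 1051, 977 and 1079.8 at E17.5. Every early value was below 10 and the lowest late value was 977 (difference 7.29 ± 0.37, adjusted p = 9.7e-07). Gna14 thus passed the filter only through its E17.5 values and could not have come out lower. Gng4, a gamma subunit, and Gnal, an alpha subunit that stimulates adenylyl cyclase, rose by 4.51 ± 0.16 and 3.14 ± 0.13. The broadly used Gnao1 and Gnaq rose by 1.41 ± 0.18 and 0.89 ± 0.12. The 3 falls were those of Gng5, Gnai2 and Gna13 (-1.19 ± 0.20, -0.56 ± 0.18 and -0.47 ± 0.11), and that of Gnai2 was not called without E12.5 replicate 1 (adjusted p = 0.0765) or replicate 2 (adjusted p = 0.06).

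RGS proteins end G protein signals by speeding the hydrolysis of GTP. Together with receptor kinases and arrestins, 15 of 25 tested genes rose and 5 fell (median 0.77). Rgs7bp, which anchors RGS7-family proteins at the membrane, read 215, 242 and 238 at E12.5 and 5138, 6116 and 5094 at E17.5. The ages did not overlap (difference 4.55 ± 0.12, adjusted p = 1.5e-07). Rgs17 rose from 136 ± 28.9 to 2081 ± 485 (adjusted p = 1.3e-06). Rgs16 and Rgs12 fell, with differences of -2.49 ± 0.19 and -1.69 ± 0.16.

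Cyclic AMP and cyclic GMP are made by cyclases, broken down by phosphodiesterases and read by protein kinases A and G. Of 48 tested genes 31 rose and 6 fell (median 1.03). Among the regulatory subunits of protein kinase A, Prkar1b, a neuronal form, read 542, 671 and 569 at E12.5 and 4271, 3312 and 4227 at E17.5. All late libraries were above all early ones (difference 2.72 ± 0.15, adjusted p = 1.3e-06). Prkar1a and Prkar2b rose by less, 0.84 ± 0.11 and 0.86 ± 0.15, and Prkar2a was just short of the threshold (0.28 ± 0.11, adjusted p = 0.0505). The calcium-dependent phosphodiesterases were split. Pde1c rose from 113 ± 17.8 to 1196 ± 98.8 and Pde1a from 7.73 ± 4.16 to 112 ± 16.5, whereas Pde1b fell from 287 ± 60.7 to 108 ± 16.8 (adjusted p = 7.1e-07, 5.5e-05 and 4.3e-04).

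The list of calcium and lipid second messengers had the highest median of the 59 lists. It holds calmodulin-dependent kinases, protein kinases C, phospholipases C and diacylglycerol kinases, and 55 of its 69 tested genes rose while 3 fell (median 1.80). Plcd4, a phospholipase C on chromosome 1 from 74541975 to 74565977, read 1.10, 3.21 and 5.77 at E12.5 and 548, 497 and 456 at E17.5. The early values rest on a few reads each, and the late ones did not fall below 456 (adjusted p = 1.8e-06). Protein kinase C alpha, Prkca, rose from 361 ± 18.3 to 5567 ± 277 (difference 3.94 ± 0.11, adjusted p = 1.5e-07), and Prkcd by 2.13 ± 0.17. Camk2a, a kinase of calcium signalling, rose from 152 ± 41.8 to 1118 ± 56.6 (difference 2.91 ± 0.19), and its inhibitor Camk2n1 fell (difference -1.21 ± 0.23, adjusted p = 0.0016). The diacylglycerol kinases Dgkg and Dgkz, which remove the lipid activator of protein kinase C, rose by 5.32 ± 0.30 and 2.14 ± 0.16. Plcd4 and Dgkg passed the filter only through their E17.5 values, so they could not have come out lower. S100b, a calcium-binding protein of glia, rose from 25.8, 19.3 and 46.9 to 1544, 1509.6 and 1552. Plch1, another phospholipase C, fell from 1149, 1007 and 438 to 18.4, 38.8 and 18.5.

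Small GTPases act as switches of growth and the cytoskeleton. Of 68 tested switches and regulators 28 rose and 13 fell, with 27 not called (median 0.23). Without E12.5 replicate 1 the falls were 8. Rasgrp1, which activates Ras in response to diacylglycerol and calcium, read 15.4, 17.3 and 23.1 at E12.5 and 1226, 1453 and 1350.4 at E17.5. The highest early library was far below the lowest late one (difference 6.12 ± 0.19, adjusted p = 1.8e-07). Rasgrf2, a calcium-dependent activator, and the neuronal Ras-like Rit2 rose by 4.43 ± 0.40 and 3.87 ± 0.28. Rac3 rose (1.79 ± 0.26, adjusted p = 3.3e-04), while its relatives Rac1 and Rac2 were not called (-0.10 ± 0.12 and -0.25 ± 0.28). Rnd3, an atypical small GTPase, fell from 4308 ± 392 to 739 ± 75.8.

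Transcription factor genes fell more often than they rose. Over all transcription lists 450 genes were tested, of which 236 fell and 97 rose, with a median of -0.72. A further 43 held a trimmed-mean value and were not tested. Among non-Hox homeobox genes 54 of 78 tested fell and 10 rose, among Sox genes 11 of 14 fell and 0 rose, among forkhead genes 16 of 27 fell and 2 rose, and among basic helix-loop-helix and Id genes 24 of 39 fell and 6 rose. The filter asks for 3 libraries, so leaving out an early one also removed genes near 0 at E17.5, and 32, 32 and 34 non-Hox homeobox genes fell of 55, 55 and 57 tested without E12.5 replicates 1, 2 and 3. Without E12.5 replicate 1 there was 1 forkhead rise and without replicate 3 there were 4. Without E12.5 replicate 3 there was 1 Sox rise, and without E17.5 replicate 2 there were 3 helix-loop-helix rises among 35 tested. In 3 other families rises and falls were closer to balance. Klf and Sp factors had 10 rises and 9 falls among 22 (45.5% and 40.9%). Nuclear receptors had 14 and 13 among 43 (32.6% and 30.2%), near the shares of all genes (31.2% and 32.1%). The bZIP factors had 14 and 10 among 43 (32.6% and 23.3%). Without E17.5 replicate 1 or 3 the Klf and Sp factors had 9 rises and 9 falls. Nuclear receptors had 9 rises and 13 falls among 38 without E17.5 replicate 1, and 9 and 15 among 39 without replicate 2. Without E17.5 replicate 3 they had 10 and 16. Leaving out E17.5 replicate 1 or 2 also removed genes from the test, so rises lost there need not be lost calls.

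Several of the large falls were of factors used by neural precursors and by the spinal cord. Sox9, which acts in crest, glia and cartilage, read 2304, 1902 and 2486 at E12.5 and 51.2, 59.96 and 57.8 at E17.5, a difference of -5.28 ± 0.15 (adjusted p = 1.5e-07). Sall1, a zinc finger gene, fell from 3379, 2829 and 1149.9 to 46.3, 52.9 and 34.7. Its E12.5 replicate 3 was the lowest early library, as it was for Sox2 (4145, 3368 and 1259). Without that library the differences were -6.10 for Sall1 and -3.73 for Sox2. Uncx (529, 534 and 588 at E12.5 and 0.874, 0 and 2.31 at E17.5) and Lhx3 (160.3, 137 and 115 at E12.5 and 0, 3.53 and 0 at E17.5) were near or at 0 in every late library. Both genes passed the filter only through their E12.5 values, so they could not have come out higher. Lhx3 is on the spinal cord marker list, which moved with it. Sox11, a factor of young neurons, fell from 17307 ± 4741 to 1450.4 ± 217 (difference -3.55 ± 0.22), and Sox10, a factor of crest and glia, was not called (-0.05 ± 0.25, adjusted p = 0.869).

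The rises included factors tied to sensory neuron classes. Runx1, needed in nociceptors, read 56.5, 92.5 and 137 at E12.5 and 1397, 1323 and 1413 at E17.5 (difference 3.93 ± 0.28, adjusted p = 5.0e-06). Its relative Runx3, needed in proprioceptors, was not called (-0.63 ± 0.28, adjusted p = 0.0802). The sensory factors Isl2, Pou4f2 and Pou4f3 rose by 1.89 ± 0.30, 1.81 ± 0.25 and 1.87 ± 0.32, and Prdm12, a regulator of nociceptor development, by 1.59 ± 0.19. Insm2 and Ldb2 rose from 12.4 ± 4.25 to 231 ± 70.7 and from 263 ± 85.8 to 2549.5 ± 128. Klf5, Klf7, Klf8 and Klf9 rose by 3.51 ± 0.32, 1.79 ± 0.15, 2.05 ± 0.15 and 2.51 ± 0.17, whereas Klf12, Sp1 and Sp2 fell (differences -1.53 ± 0.15, -1.16 ± 0.14 and -1.45 ± 0.17). Thra, a thyroid hormone receptor, and Nr4a1, an early response receptor, rose from 437 ± 37.9 to 1579 ± 263 and from 78.8 ± 10.1 to 371 ± 95.5.

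Hox genes lie in clusters, and their paralogue groups are numbered in the order in which they are used from head to tail. Their direction differed by number. Of 19 tested genes of groups 1 to 8, 17 fell, 1 rose and 1 was not called. In group 9, 1 rose, 1 fell and 1 was not called, and in groups 10 and 11 all 5 tested genes rose. Hoxa11, Hoxd10 and Hoxd11 had every E12.5 value below 10, so they passed the filter only through their E17.5 values. Once tested, these genes could not have come out lower, so the filter fixed their direction. Over all Hox genes 7 rose, and 4 did without E17.5 replicate 1, 2 or 3, where 24 in place of 27 passed the filter. Hoxc8, on chromosome 15 from 102990539 to 102994275, read 2555, 2743 and 2353 at E12.5 and 89.6, 166 and 125 at E17.5 (difference -4.36 ± 0.21, adjusted p = 8.5e-07). Hoxb8 read 5118, 4737 and 2854 at E12.5 and 205, 166 and 273 at E17.5, and Hoxa5 read 2093, 1633 and 1637 at E12.5 and 128, 131 and 134 at E17.5. For all 3 genes even the lowest early library was at least several times the highest late one. Hoxd10, on chromosome 2 from 74684273 to 74695106, read 1.10, 8.99 and 0.721 at E12.5 and 342, 222 and 125 at E17.5 (adjusted p = 7.0e-05), and Hoxd11 read 0, 0.642 and 0 at E12.5 and 244, 134 and 25.4 at E17.5 (adjusted p = 1.1e-04). Hoxa10 read 111, 184 and 28.1 at E12.5 and 628, 593 and 627 at E17.5, and here E12.5 replicate 2 was the highest early library, as it was for Hoxc10 (8.23, 97.0 and 3.60). Hoxd1 was the exception of the low numbers (91.0 ± 18.1 to 271 ± 73.5, adjusted p = 5.5e-04). In adult sham-operated ganglia, which the design text gives as L4-5, Hoxa10 was 694 and Hoxd10 was 16.2, while Hoxc8 was 160 and Hoxb8 was 234. Both embryonic ages are lumbar by the design text. Which segments were taken at each age is not given, and the part of segment choice, or of the spinal cord markers that fell, in the Hox differences was not tested. Hoxa2, Hoxb9, Hoxc4 and Hoxc5 held a trimmed-mean value and were not tested.

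**Figure D3:**
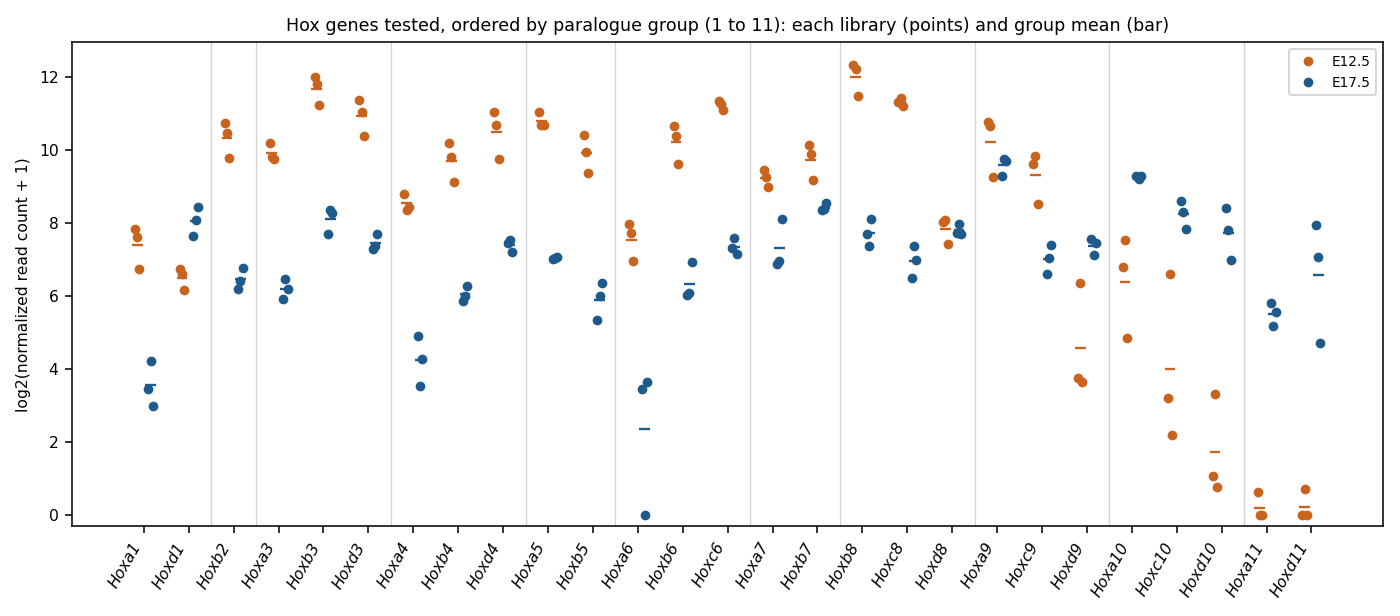
Normalized read counts of the 27 Hox genes tested, as log2(value + 1), in each library (points, with the group mean as a bar), in order of paralogue group and separated by grey lines, orange for E12.5 and blue for E17.5. Groups 1 to 8 were lower at E17.5 in 17 of 19 genes and the 5 genes of groups 10 and 11 were higher. Among these 5, Hoxa11, Hoxd10 and Hoxd11 passed the filter only through their E17.5 values, so they could not have come out lower.

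Genes of chromatin were mostly lower. Of 192 tested, 139 fell and 20 rose (median -1.02). For the BAF remodelling complex, which is known to swap subunits when precursors become neurons, 19 of 27 fell and 1 rose. The precursor subunit Actl6a read 354, 355 and 338 at E12.5 and 76.1, 116 and 150.3 at E17.5 (difference -1.66 ± 0.24, adjusted p = 3.1e-04). The neuronal counterpart Actl6b read 42.8, 56.5 and 29.6 at E12.5 and 83.1, 49.4 and 80.9 at E17.5, which overlapped and was not called (difference 0.72 ± 0.32, adjusted p = 0.0732). Of the 4 paralogues of the BAF45 position, Dpf1, Dpf2 and Dpf3 fell (-1.39 ± 0.23, -0.84 ± 0.12 and -1.83 ± 0.30), and Phf10 was not called (-0.18 ± 0.30). Ss18 fell (-1.32 ± 0.13), and the neuronal Ss18l1 was not called (-0.23 ± 0.20, adjusted p = 0.334). With the settings given, no paralogue of these positions was called higher, so the values show falls but no rise of a replacing subunit. The single riser was the ATPase Smarca2 (417 ± 177 to 783 ± 123, adjusted p = 0.0116), which was not called without E17.5 replicate 2 (adjusted p = 0.052). Without E12.5 replicate 2 the list had 2 rises.

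Polycomb group proteins keep developmental genes silent. Of 42 tested genes of the Polycomb and trithorax groups 28 fell and 6 rose. The methylases of histone H3 in this complex went apart. Ezh2, the form of dividing cells, read 644, 601 and 555 at E12.5 and 95.3, 98.8 and 62.4 at E17.5 (difference -2.82 ± 0.20, adjusted p = 5.0e-06), and Ezh1 rose from 160.5 ± 22.4 to 333 ± 78.2 (difference 1.03 ± 0.21, adjusted p = 0.00238). Cbx2 fell (difference -3.07 ± 0.13). Among the DNA methylases Dnmt1 and Dnmt3b fell, with differences of -1.43 ± 0.14 and -2.08 ± 0.23. Dnmt3a read 3659.8, 3848 and 4699.6 at E12.5 and 3145, 3227 and 3269.5 at E17.5, a small fall just past the threshold (adjusted p = 0.0474) that was not called without any 1 of the 6 libraries (adjusted p = 0.0577 to 0.122). Chd5, a remodeller of neurons, rose from 86.6 ± 13.7 to 1268 ± 206, while Chd7, a remodeller mutated in a syndrome of crest derivatives, fell from 2634 ± 554 to 200.1 ± 20.2.

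The steepest chromatin list was that of HMG proteins, histone variants and histone chaperones, in which 39 of 43 tested genes fell and 4 rose. Hmga2 is described below with the let-7 genes. Hmgb2, Hmgb1 and Hmga1 fell, with differences of -2.88 ± 0.16, -1.91 ± 0.19 and -2.29 ± 0.29. Within the Nap1 family of histone chaperones Nap1l1 read 4314, 4013 and 4364 at E12.5 and 2049, 2843 and 2146 at E17.5 and fell (-0.86 ± 0.15, adjusted p = 8.2e-04). The neuronal members rose, Nap1l2 by 1.59 ± 0.15, Nap1l3 by 1.82 ± 0.15 and Nap1l5 by 2.95 ± 0.15. Each had groups that did not overlap.

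RNA processing genes fell far more often than they rose. Over the lists of RNA processing and translation 587 genes were tested, of which 353 fell and 45 rose (median -0.58). Of 41 hnRNP and related proteins, which coat new transcripts, 37 fell and 1 rose. Of 68 core spliceosome genes 53 fell and 1 rose, of 24 SR proteins and their kinases 18 fell and 2 rose (1 without E12.5 replicate 1 or 2 or E17.5 replicate 1), of 27 cleavage and polyadenylation genes 20 fell and 0 rose, and of 64 genes of export, surveillance and decay 45 fell and 0 rose. Hnrnpa0 read 10794, 11291 and 10189 at E12.5 and 1876, 2751 and 2946 at E17.5 (difference -2.12 ± 0.17, adjusted p = 1.2e-05). Srsf1 read 12649, 12433 and 12239 at E12.5 and 3655, 5499 and 3885 at E17.5 (difference -1.54 ± 0.16, adjusted p = 5.2e-05). In neither gene did the ages overlap, which was a condition of naming them. The rises in these lists were those of Pcbp3 (287 ± 14.1 to 1395 ± 118), Srsf12 (149 ± 20.9 to 926 ± 102), the kinase Srpk2 (difference 0.34 ± 0.12, adjusted p = 0.0346) and Snrpn (111 ± 11.7 to 902 ± 172). Srpk2 was not called without E12.5 replicate 1, 2 or 3 or E17.5 replicate 1 (adjusted p = 0.0652 to 0.0963). Snrpn, on chromosome 7 from 59982495 to 60450177, encodes SmN, which replaces the general spliceosome protein SmB in neurons. Snrpb, which encodes SmB, read 684, 617 and 669 at E12.5 and 245, 187 and 238 at E17.5 against 99.4, 123 and 112 at E12.5 and 1101, 804 and 802 at E17.5 for Snrpn. The 2 genes changed in opposite directions, -1.56 ± 0.15 for Snrpb and 3.00 ± 0.17 for Snrpn (adjusted p = 2.8e-05 and 1.7e-06). Nothing in the sources used here says how reads matching several close relatives were counted, which leaves the values of such genes uncertain.

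Regulators that choose splice sites in neurons were not uniform, with 18 of 36 tested genes lower and 9 higher. The polypyrimidine tract proteins repress neuronal exons, and neurons are known to replace Ptbp1 by Ptbp2. Ptbp1, on chromosome 10 from 79854432 to 79864435, read 3709, 3290.1 and 4841 at E12.5 and 1080.3, 995 and 1105 at E17.5 (difference -1.88 ± 0.15, adjusted p = 1.2e-05). Ptbp2 read 3946, 3708 and 2417 at E12.5 and 1855, 2906 and 1778 at E17.5, with overlapping groups (difference -0.63 ± 0.24, adjusted p = 0.0452), and it was not called without E12.5 replicate 1 or 2 or E17.5 replicate 1 or 3 (adjusted p = 0.125 to 0.15). Ptbp3 was not called (0.29 ± 0.19, adjusted p = 0.211). Rbfox1, Rbfox3, Mbnl2 and Celf6, regulators of maturing neurons, rose by 2.50 ± 0.17, 2.00 ± 0.24, 2.63 ± 0.24 and 2.50 ± 0.31. Nova1 and Srrm4, which also act on neuronal exons, fell from 2077 ± 599.6 to 224 ± 104 and from 1842 ± 640.1 to 648 ± 97.1 (adjusted p = 3.7e-05 and 0.00116). Msi1, an RNA-binding protein of precursors, read 474, 448 and 268 at E12.5 and 15.3, 21.2 and 11.6 at E17.5. No late library came near the lowest early one (difference -4.54 ± 0.30, adjusted p = 3.4e-06). Of the Elavl genes Elavl4 rose (0.88 ± 0.18) and Elavl3 was not called (-0.46 ± 0.23, adjusted p = 0.112). Rest, the repressor of neuronal genes, fell from 707 ± 229 to 182 ± 12.0.

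The let-7 microRNA family rises late in development in many tissues, and Lin28 proteins block its maturation. MicroRNAs themselves were not measured in these libraries. The seed of let-7 and the first matching site in the longest annotated 3′ untranslated region are shown for 4 genes of this circuit, because their levels fell steeply and a reader can compare the sites with the seed. The miRNA sequence is from RefSeq (GRCm38.p6, chr13:48538239-48538260, minus strand, with the seed, bases 2 to 8, in capitals). The sites are from GENCODE M21 transcripts (GRCm38, all on the minus strand, with the 8 bases complementary to the seed and an A in capitals), at chr9:114512464-114512487 for Trim71, chr11:95961770-95961793 for Igf2bp1, chr10:120364216-120364239 for Hmga2 and chr4:134005181-134005204 for Lin28a.
let-7a-5p: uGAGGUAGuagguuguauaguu
Trim71 site: cctaagtcCTACCTCAgcttaaat
Igf2bp1 site: gaagtaaaCTACCTCAaggtgtga
Hmga2 site: ttcaatttCTACCTCAgcatcagt
Lin28a site: ctgttgaaCTACCTCAtttttgcc

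Igf2bp1, an RNA-binding protein of embryonic tissue with 3 such sites, read 3538, 3167 and 3432 at E12.5 and 129, 145 and 92.5 at E17.5 (difference -4.80 ± 0.17, adjusted p = 3.0e-07). Hmga2, a chromatin protein of growing tissue with 1 site of this form, read 3193, 2981 and 7595 at E12.5 and 88.8, 127 and 97.1 at E17.5 (difference -5.32 ± 0.33, adjusted p = 2.6e-06). Its E12.5 replicate 3 was more than 2-fold above replicates 1 and 2, and without it the difference was -4.89. Trim71, a regulator of embryonic growth with 4 sites, read 81.2, 105 and 88.7 at E12.5 and 1.31, 3.53 and 0 at E17.5 (adjusted p = 3.7e-05), and Lin28a, with 2 sites, read 101, 82.9 and 51.9 at E12.5 and 2.19, 7.05 and 2.31 at E17.5 (adjusted p = 7.0e-05). Trim71 and Lin28a passed the filter only through their E12.5 values, so they could not have come out higher. Lin28b, Igf2bp2 and Igf2bp3, each with 1 site, fell too, with differences of -0.93 ± 0.20, -1.93 ± 0.15 and -3.23 ± 0.23. In no gene of this group did the ages overlap. Over all 13241 tested genes with an annotated 3′ untranslated region, 32.2% fell. The share was 38.9% of the 491 genes with at least 1 let-7 site and 57.7% of the 26 genes with at least 2, 15 of them, with medians of -0.16 and -1.01 against -0.04 over all. The genes with at least 2 sites include 4 rises, such as Vstm5 (53.0 ± 8.63 to 2010.4 ± 223) and Adamts15 (468 ± 253 to 1476 ± 171). Mcf2l, with the most sites of the 26 genes (7), also rose, with a difference of 1.18 (adjusted p = 6.0e-04). For miR-125b, miR-9 and miR-17 sites (CTCAGGGA, ACCAAAGA and GCACTTTA) 37.1%, 32.6% and 25.7% of the genes with at least 1 site fell. These are shares of letter matches, and no site was shown to act. Dicer1 and Ago1, parts of the microRNA machinery with no let-7 site of this form, fell, with differences of -1.04 ± 0.11 and -2.59 ± 0.24. In all, 20 of 31 tested genes of microRNA, Lin28 and RNA methylation functions fell and 1, Adarb1, rose (1.91 ± 0.15).

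**Figure D4:**
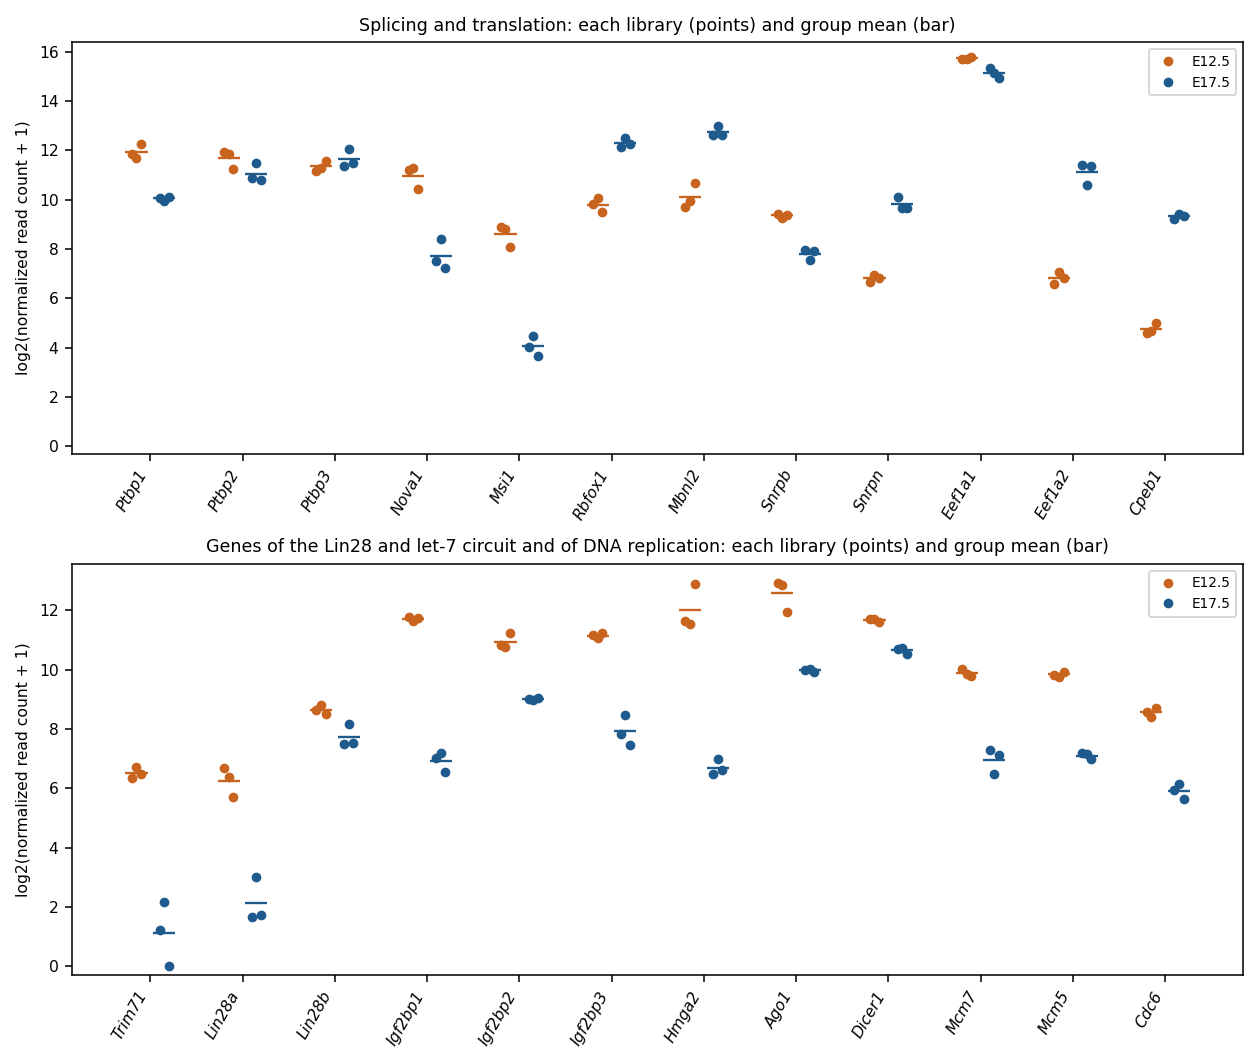
Normalized read counts as log2(value + 1) in each library (points, with the group mean as a bar) for splicing and translation genes (top) and for genes of the Lin28 and let-7 circuit and of DNA replication (bottom), orange for E12.5 and blue for E17.5. Ptbp2 and Ptbp3 overlap between ages, Snrpn and Eef1a2 are higher at E17.5, and the 12 genes of the bottom panel are lower at E17.5. Trim71 and Lin28a passed the filter only through their E12.5 values, so they could not have come out higher.

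Among translation genes, those of ribosomal proteins and ribosome assembly fell more often than they rose. Of 76 tested cytosolic ribosomal protein genes 40 fell, 4 rose and 32 were not called (median -0.56), and many of these genes have pseudogene copies, so that their values are uncertain. Of 79 ribosome assembly genes 53 fell and 1 rose, or 2 without E17.5 replicate 3 (median -0.67). Npm1, a nucleolar chaperone of ribosome assembly, fell from 3424 ± 409.8 to 1368 ± 399 (adjusted p = 5.6e-04), and Gnl3l rose from 1614 ± 146 to 3753 ± 359 (adjusted p = 4.8e-05). Of 55 initiation and elongation factors 23 fell and 8 rose, and of 39 aminoacyl-tRNA synthetases 6 fell and 5 rose. The synthetase falls numbered 2, 2 and 3 without E12.5 replicates 1, 2 and 3, so that list has no stable direction. The elongation factor 1A pair changed in opposite directions. Eef1a2, the form of neurons and muscle, on chromosome 2 from 181141758 to 181157015, read 94.97, 134 and 111 at E12.5 and 2692, 1566 and 2634 at E17.5 (difference 4.30 ± 0.23, adjusted p = 1.3e-06). Eef1a1, the general form, read 53220.4, 53705 and 55841 at E12.5 and 41993, 35909 and 31731 at E17.5 and fell slightly (-0.58 ± 0.14, adjusted p = 0.00561). Regulators of local translation were split, 20 lower and 13 higher of 47. Cpeb1, which controls the poly(A) tails of stored transcripts, rose from 23.1, 24.4 and 31.0 to 588, 684 and 643 (difference 4.57 ± 0.18, adjusted p = 3.9e-07), and Cpeb2 rose by 1.83 ± 0.17.

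DNA replication and repair genes moved together. Of 62 tested genes 57 fell and 0 rose (median -1.72). The helicase subunit Mcm7 read 1051, 937 and 887 at E12.5 and 155, 88.2 and 139 at E17.5 (difference -2.94 ± 0.21, adjusted p = 5.7e-06), and Exo1, a repair nuclease, fell too (difference -2.99 ± 0.17). Among Myc, E2F and related factors 23 of 28 fell and 2 rose. Mycn fell from 1141 ± 65.1 to 276 ± 53.6 while Myc rose from 329 ± 63.5 to 741 ± 122 (adjusted p = 7.6e-06 and 5.1e-04). E2f7, Foxm1 and Mybl2, which drive or time the cell cycle, fell, with differences of -2.38 ± 0.14, -2.38 ± 0.13 and -2.52 ± 0.18. E2F factors bind the letters TTTGGCGC or TTTCCCGC near gene starts, so the window from 250 bases before to 50 after each start was searched on both strands (RefSeq, GRCm38.p6). Of 49 replication genes with a promoter sequence, 16 (32.7%) held at least 1 match, against 349 of 10706 tested genes (3.26%) and 2.67% of 13693 windows. Of the 349 genes 189 fell (54.2%) and 58 rose. Replication genes are known E2F targets, so the share of matches is a description. A stretch around the match, in capitals, is shown for the 4 genes with the largest falls among those whose match and its flanks lie before the gene start, to let the shared letters be seen. It lies for Mcm7 at chr5:138172017-138172072 on the minus strand and on the plus strand for Mcm5 at chr8:75109336-75109391, Cdc6 at chr11:98907989-98908044 and Brca2 at chr5:150522429-150522484.
Mcm7: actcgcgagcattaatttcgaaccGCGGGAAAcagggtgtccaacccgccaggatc
Mcm5: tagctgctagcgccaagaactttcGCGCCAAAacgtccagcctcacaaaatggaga
Cdc6: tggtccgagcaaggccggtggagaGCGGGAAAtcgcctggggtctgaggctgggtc
Brca2: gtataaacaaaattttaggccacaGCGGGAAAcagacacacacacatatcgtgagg

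The matches began 165, 149, 138 and 168 bases before the gene start. Mcm5 read 915, 872 and 974 at E12.5 and 146, 141 and 125 at E17.5, Cdc6 read 379, 341 and 415 at E12.5 and 60.3, 70.5 and 48.6 at E17.5 and Brca2 fell (difference -2.02 ± 0.15, adjusted p = 6.5e-06). Dividing precursors of the spinal cord and of the ganglion both use these genes, and the part of the spinal cord markers in these falls was not tested.

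Among metabolic genes rises outnumbered falls, with 256 of 646 tested genes higher and 123 lower (median 0.15). Of 37 tested glycolysis genes 13 rose, 8 fell (5 without E12.5 replicate 1 or 2) and 16 were not called. Eno2, the neuronal enolase, read 98.3, 143 and 122 at E12.5 and 3302, 3097 and 3175 at E17.5 (difference 4.72 ± 0.15, adjusted p = 1.9e-07). Aldoc, the aldolase of nervous tissue, read 16.5, 23.8 and 15.1 at E12.5 and 848, 698 and 745 at E17.5 (difference 5.32 ± 0.21, adjusted p = 3.9e-07), and Pfkp, a platelet and brain phosphofructokinase, rose by 3.71 ± 0.15. Their relatives moved by less: Aldoa by 1.73 ± 0.17 and Pfkm by 1.05 ± 0.15, while Pfkl (-0.11 ± 0.16, adjusted p = 0.556) and Eno1 (0.74 ± 0.52, adjusted p = 0.24) were not called. The hexokinases changed in opposite directions. Hk1, the form bound to mitochondria in brain, read 544, 672 and 542 at E12.5 and 2436, 1993 and 3078 at E17.5 and rose (2.08 ± 0.18). Hk2, a form of growing tissue, read 501, 465 and 505 at E12.5 and 94.0, 131 and 71.7 at E17.5 and fell (-2.34 ± 0.22, adjusted p = 2.3e-05). The glucose transporter Slc2a1 fell from 1244 ± 165 to 597 ± 147, Ldhb fell as well (difference -0.80 ± 0.16), and Ldha was not called (0.26 ± 0.12, adjusted p = 0.0911).

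Rises outnumbered falls in the lists of mitochondrial energy supply. Of 45 tested genes of pyruvate use and the citric acid cycle 28 rose and 5 fell (median 0.53), and of 38 genes of the respiratory chain and its partners 21 rose and 4 fell (median 0.53). Sucla2, a subunit of succinyl-CoA ligase that makes ATP, rose from 294 ± 28.5 to 1081 ± 114, whereas Suclg2, its GTP-forming counterpart, fell from 352 ± 42.2 to 208 ± 25.3 (adjusted p = 6.5e-06 and 0.00269). Of the mitochondrial aspartate carriers Slc25a12 rose (1.89 ± 0.14) and Slc25a13 fell (-1.93 ± 0.17). Ckmt1, mitochondrial creatine kinase, read 56.0, 51.4 and 52.6 at E12.5 and 696, 593 and 562 at E17.5 (difference 3.50 ± 0.15, adjusted p = 6.0e-07), while cytosolic Ckb read 5255, 4542 and 2117 at E12.5 and 1322, 875 and 1921 at E17.5 and fell (-1.50 ± 0.37, adjusted p = 0.00651). Gatm, which starts creatine synthesis, rose from 139 ± 41.5 to 1691 ± 449.7. Ppargc1a, an inducer of mitochondrial genes, rose from 83.9 ± 10.2 to 378 ± 5.80, and the factor Nrf1 fell from 667 ± 24.9 to 248 ± 13.5. In the list of mitochondrial biogenesis and dynamics, which holds both genes, 19 of 54 rose (35.2%, against 31.2% of all genes), 9 fell and 26 were not called (median -0.07). Without E17.5 replicate 1 the respiratory chain rises were 13 of 37, and without E12.5 replicate 2 its falls were 2 and those of the citric acid cycle list 3. Of 75 mitochondrial ribosomal protein genes 56 were not called, 15 fell and 4 rose. Those falls numbered 5, 6 and 9 without E12.5 replicates 1, 2 and 3, and the rises were 2 without E17.5 replicate 1.

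More lipid genes rose than fell. Of 51 tested genes of fatty acid oxidation and ketone bodies 24 rose and 2 fell. Cpt1a, which admits fatty acids to mitochondria, rose from 241 ± 18.9 to 1849 ± 168. Of 37 genes of fatty acid and membrane lipid synthesis 19 rose and 4 fell, and of 49 sphingolipid and ganglioside genes 29 rose and 7 fell (median 0.71), with 4 falls without E12.5 replicate 2 or E17.5 replicate 1. The chain-lengthening enzyme Elovl7 rose from 19.8, 34.7 and 51.2 to 1107, 1347 and 1128 (adjusted p = 2.0e-06), and Elovl2 fell (difference -1.98 ± 0.20). Sgms2, a sphingomyelin synthase, rose by 4.73 ± 0.24, and Gal3st1, which makes the myelin lipid sulfatide, from 11.8 ± 4.10 to 155 ± 49.97. Among ceramide synthases Cers4 rose (2.62 ± 0.14) and Cers6 fell (-1.17 ± 0.16). Some of these lipids are made by Schwann cells, whose markers rose too, and their part was not tested.

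Ion pumps and co-transporters were higher in 18 of 29 tested genes and lower in 4 (median 0.79). Atp1b1, the beta subunit of the sodium pump, read 448, 452 and 381 at E12.5 and 8928, 10437 and 9052 at E17.5 (difference 4.47 ± 0.13, adjusted p = 1.5e-07). The chloride importer Slc12a2 read 1119.8, 1016 and 1352 at E12.5 and 1789.9, 2219 and 2000.1 at E17.5 and rose (0.79 ± 0.14, adjusted p = 0.00134), and the exporter Slc12a5 read 182, 208 and 152 at E12.5 and 24.5, 77.6 and 39.3 at E17.5 and fell (-2.06 ± 0.37, adjusted p = 0.00126). Primary sensory neurons are known for high internal chloride, and spinal cord neurons express Slc12a5, so the spinal cord markers moved with this fall, and their part was not tested.

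Enzymes that supply building blocks to dividing cells were split. In serine and one-carbon metabolism 14 of 28 tested genes fell and 5 rose, with 9 falls without E12.5 replicate 1 and 3 rises without E17.5 replicate 1 or 3. Tyms, which makes thymidylate, and Shmt1 fell, with differences of -2.29 ± 0.15 and -2.50 ± 0.22, while mitochondrial Mthfd2 rose by 0.85 ± 0.13. In purine and pyrimidine metabolism 20 of 50 fell and 15 rose (40.0% and 30.0%, against 32.1% and 31.2% of all genes). Rrm1, the large subunit of ribonucleotide reductase, fell (difference -2.11 ± 0.12), whereas Ak5, an adenylate kinase of neurons, read 11.5, 18.6 and 15.1 at E12.5 and 700.4, 599.6 and 679.8 at E17.5 (difference 5.38 ± 0.21, adjusted p = 4.0e-07). Nt5e, the enzyme that makes extracellular adenosine, and Ampd3 rose from 35.0 ± 10.6 to 389.8 ± 18.5 and from 30.2 ± 8.79 to 359 ± 17.6. Of 23 polyamine and arginine genes 7 fell and 6 rose, shares near those of all genes. That list had 5 falls and 6 rises without E12.5 replicate 1 or 2, 5 of each without E17.5 replicate 1 and 6 of each without E17.5 replicate 2. Odc1, the first enzyme of polyamine synthesis, read 1473, 1455 and 1348 at E12.5 and 421, 455 and 419 at E17.5 and fell (-1.72 ± 0.11, adjusted p = 3.6e-06). Sat1, which breaks polyamines down, rose by 1.10 ± 0.16. Of 28 amino acid transporters 12 rose and 7 fell. Slc6a15, a carrier of neutral amino acids in neurons, rose from 159.7 ± 25.3 to 2634 ± 311 (adjusted p = 3.4e-07). The glutamate transporter genes Slc1a2 and Slc1a3 fell, with differences of -3.41 ± 0.37 and -2.27 ± 0.18.

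**Figure D5:**
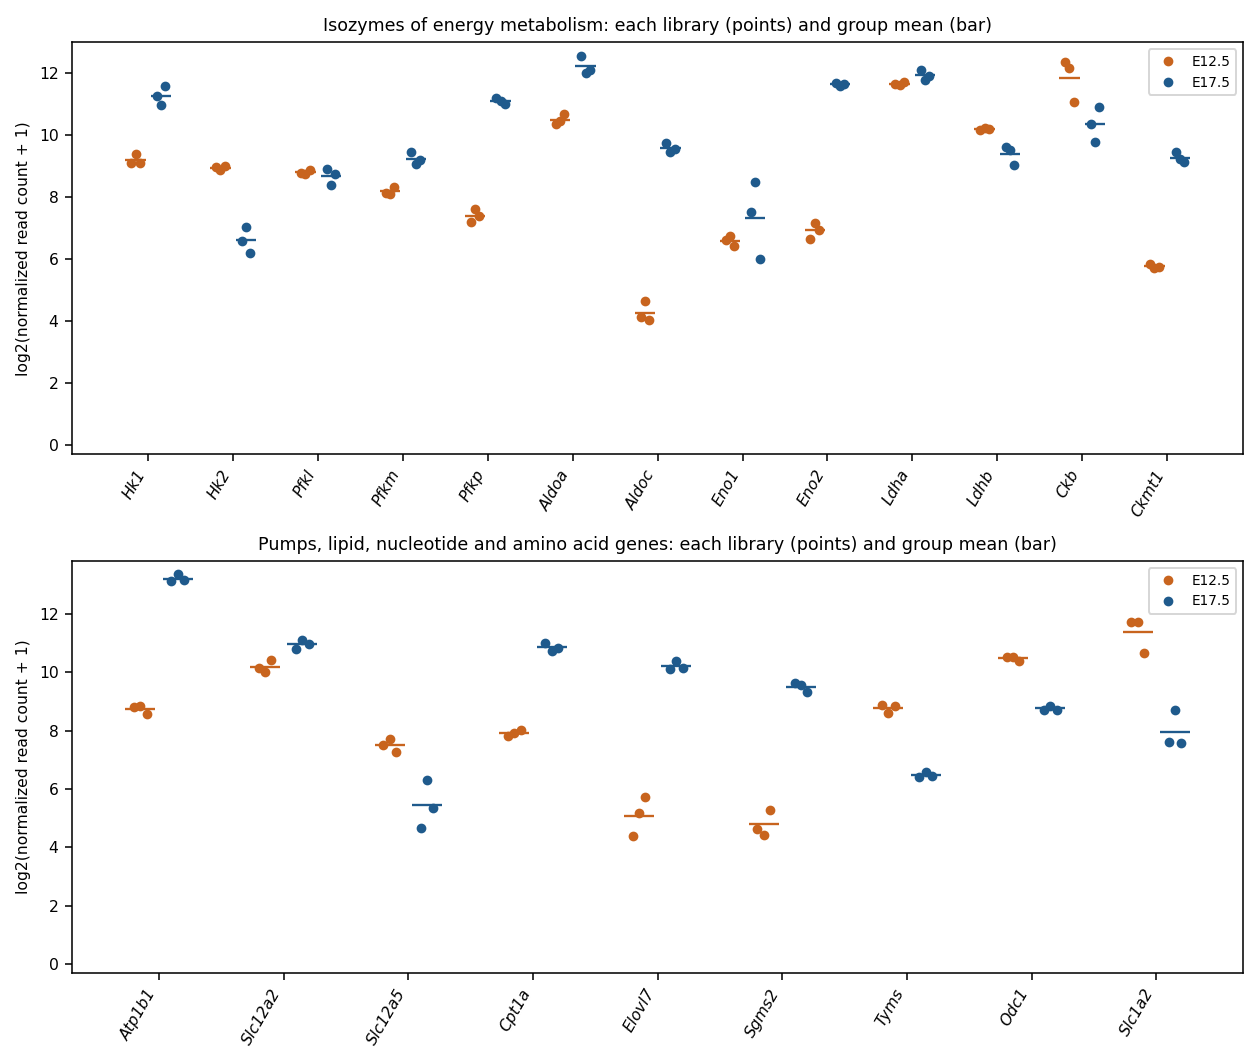
Normalized read counts as log2(value + 1) in each library (points, with the group mean as a bar) for isozymes of energy metabolism (top) and for pumps and for lipid, nucleotide and amino acid genes (bottom), orange for E12.5 and blue for E17.5. Hk1 and Hk2, Ckmt1 and Ckb, and Slc12a2 and Slc12a5 change in opposite directions, and Pfkl and Eno1 overlap between ages.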

How the data were processed

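The deposited table gave 1 signal value for each of 20782 genes and 24 libraries, which, as the values themselves show, are the authors' read counts scaled with 1 factor per library. All 339603 values of up to 1000 reads that were checked (100%) came out whole within a tolerance of 0.1. Each library started from 10 ng of RNA, per the labels' protocols. The submitters' processing notes name TopHat and the build mm10, and the counting tool is not given in the sources used here. No column was left without a sample.

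A gene was tested where at least 3 of the 6 embryonic libraries had a value of at least 10. A gene with every value of 1 age below 10 could pass only through the other age, which fixed its direction. Genes holding a trimmed-mean value (trim 0.2) were left out. The ages were compared on log2(value + 1) in limma 3.58.1 under R 4.3.3, a scale that understates changes of low genes, with eBayes set to trend and robust, no covariates, and Benjamini-Hochberg adjustment over all genes at 0.05. Alternatives were edgeR 4.0.16 and DESeq2 1.42.0 on the recovered reads, other pseudocounts, filters and scalings, all 24 libraries in 1 fit, trimmed-mean genes kept, and each library left out. Members, lists and the naming rule were chosen with earlier results of these data known. The rule took, per list, up to 3 rises and 3 falls of the largest size, from called genes whose groups did not overlap and whose higher mean was at least 100.0, all members of paralogue sets, and the main genes of a pathway. Some genes are not reported here.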

Additional observations from a re-analysis of the deposited data

How the results depend on the processing

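Under 16 alternatives the number of genes that rose or fell stayed within 1.5 times the counts given, with 4544 rises and 4755 falls by edgeR and 4648 and 4477 by DESeq2 on the recovered reads. Leaving out 1 library gave 3652 to 4426 rises and 3673 to 4671 falls, and with the 2-fold rule 2510 to 3031.0 rises and 2181 to 2490.0 falls. Over the same alternatives 53 of 59 lists kept the same leading direction. The 6 others were FGF, Klf and Sp, nuclear receptors, aminoacyl-tRNA synthetases, polyamines and iron. With all 6 libraries and the settings given, their rises and falls differed by 2 or fewer. Under some alternatives they differed by more, as in nuclear receptors without E17.5 replicate 2 (9 rises and 15 falls among 39 that passed the filter). Of 413 genes followed one by one, 0 changed direction where called and 15 lost their call under at least 1 alternative, among them Dnmt3a, Ptbp2, Gnai2 and Srpk2. Where an alternative ended a call, the cause was not tested. No paired analysis was possible because the library numbers in the labels are not shared between the ages. Depth limits genes of few reads: 3 reads were worth a value of 10.6 in E17.5 replicate 2 and 6.94 in replicate 3, against 1.31 in replicate 1.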

Other observations

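Of 30 tested genes of iron and heme use 6 rose and 7 fell, with a median of 0.00. The iron oxidase Cp rose from 52.3 ± 20.8 to 399 ± 63.4, and Slc25a37, which carries iron into mitochondria and is strongly used by red cell precursors, fell from 1448 ± 109 to 339.6 ± 81.7. Markers of red blood cells, without those holding a trimmed-mean value, were split, 2 higher and 3 lower of 6 tested, with a sum of 1865 to 2537 at E12.5 and 7434 to 16479 at E17.5. Of 47 tested genes of glutathione and redox defence 21 rose and 8 fell (median 0.20). The metallothionein Mt3 read 2.20, 5.14 and 3.60 at E12.5 and 280.2, 98.8 and 141 at E17.5, so that every late library was far above every early one (adjusted p = 1.4e-05). Mt3 passed the filter only through its E17.5 values and could not have come out lower. Gpx1, a peroxide-reducing enzyme, fell from 2100.0 ± 206 to 1178 ± 338.

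Glycogen and pentose phosphate genes rose in 16 of 27 tested genes and fell in 2, or in 1 without any 1 of the E12.5 libraries or E17.5 replicate 1 and in 4 without E17.5 replicate 3 (median 0.66). Ppp1r3d, which targets a phosphatase to glycogen, rose from 119 ± 35.6 to 654 ± 101, and Pygl, a glycogen phosphorylase, from 33.9 ± 12.1 to 131 ± 3.68.

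The median difference also varied with base composition. Over 14346 tested genes with a known transcript, it was 0.04 in the tenth with the lowest GC content and -0.28 in the tenth with the highest, from 58.0% to 71.3% GC. The part of base composition in the list results was not tested.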
